A study of Homo sapiens with 9 samples.

Results

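The fibroblast growth factor (FGF) ligands and receptors described here are 10 genes of 1 family, chosen by name: FGF1, FGF2, FGF5, FGF7, FGF11, FGFR1, FGFR2, FGFR3, FGFR4 and FGFRL1. Rows for 9 of them were found by Ensembl gene ID in the deposited table of 33264 genes, and FGFR3 was not analysed here. A gene was tested where 3 or more libraries held a value of 10 or higher, which 5 of these 9 genes met, each of them in all 9 libraries. Polyadenylated RNA came from 3 lines of the human glioblastoma line U87MG, grown in the same serum-containing medium, with 3 libraries per line. R50 OFF had been treated with 50 µM temozolomide, a DNA-alkylating drug, for 2 months and was then released from it. R50 was kept in 50 µM temozolomide without interruption, and parent is the U87MG line from which both were made. Each resistant line is described as clonal, so a group stands for 1 clone, and nothing in the labels says that its 3 libraries were separate cultures. The p-values then measure only the spread between these libraries, which may be technical.

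Secreted FGFs bind receptor tyrosine kinases together with heparan sulfate chains on the cell surface. The activated receptor signals through adaptor proteins and the RAS-MAPK cascade, whose targets include its own inhibitors, the Sprouty, SPRED and DUSP proteins. FGFR1, FGFR2, FGFR3 and FGFR4 carry a kinase domain inside the cell. FGFRL1 binds FGF ligands but lacks that domain. FGF1 and FGF2 are made without a classical signal peptide, whereas FGF5 and FGF7 are secreted by the usual route. FGF11 belongs to the FGF homologous factors, which stay inside the cell. FGF2 and FGFR1 are long-studied growth factor and receptor genes in glioma.

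In R50, transcripts of all 3 tested ligands and of FGFR1 were lower than in parent, while FGFRL1 was higher. In R50 OFF, FGF2 and FGF5 were lower than in parent, FGFRL1 was higher and FGFR1 did not pass the test. Between the resistant lines, FGF5, FGFR1 and FGFRL1 were all higher in R50 OFF than in R50. Of all 16456 genes tested, 63.3% were called in R50 against parent, 52.0% in R50 OFF against parent and 59.5% in R50 OFF against R50. By direction, 31.7% were called lower and 31.6% higher in R50 than in parent. The same shares were 25.7% lower and 26.3% higher for R50 OFF against parent, and 29.3% lower and 30.2% higher for R50 OFF against R50. Against these shares, calls were 4 lower and 1 higher of the 5 tested members in R50, 2 lower and 1 higher in R50 OFF, and 0 lower and 3 higher between the resistant lines. The comparisons with parent share the parent libraries, and those with R50 OFF share the R50 OFF libraries. R50 against parent and R50 OFF against R50 share the R50 libraries with opposite sign. A fall in R50 and a rise from it to R50 OFF are therefore not independent results. Values below are the deposited normalized signal per kilobase of transcript, means are ± SD over 3 libraries, and changes are differences of log2(value + 1), which come out too small for genes near 0. Tests are limma's, two-sided, on all tested genes with Benjamini-Hochberg adjustment at a threshold of 0.05.

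**Figure D1:**
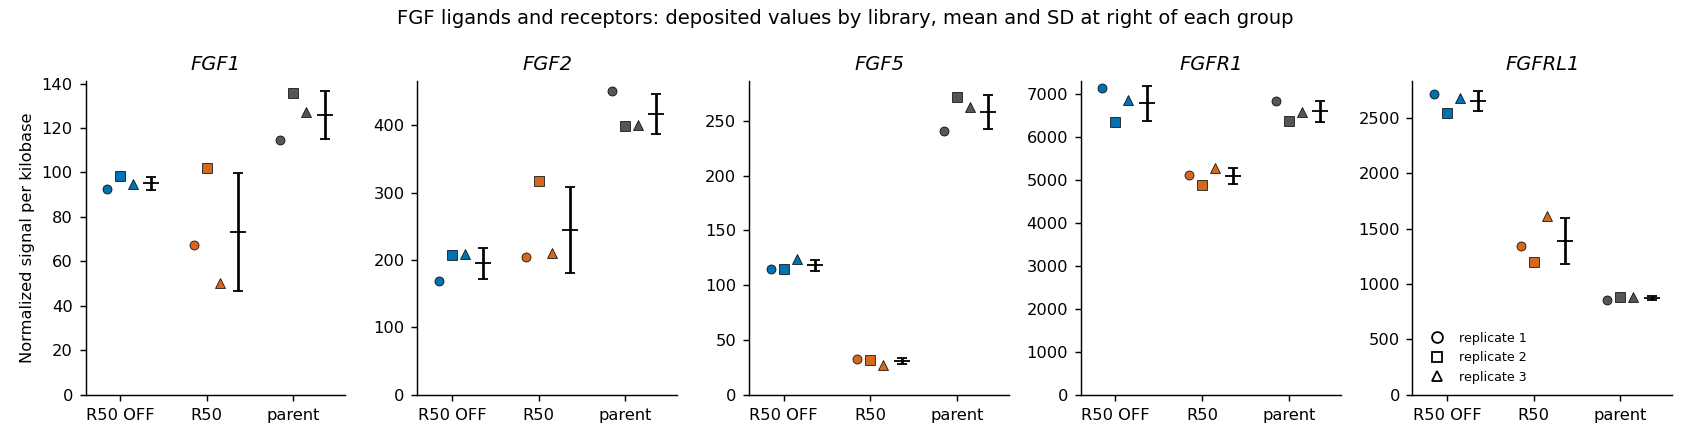
Deposited normalized signal per kilobase (vertical axis, from 0) of the 5 tested FGF members in each library of R50 OFF, R50 and parent, with a symbol per replicate and the mean ± SD at the right of each group. FGF5 lies between 27.4 and 32.3 in R50 and between 240.7 and 271.4 in parent, and R50 replicate 2 lies above the other R50 libraries for FGF1 and FGF2.

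Libraries held 28705417 to 35802255 traced reads, and 22904 to 24892 genes lay above 0. Replicates differed by more than sampling noise in all 9 pairs, and R50 replicate 2 stood apart. The chi-square per gene between it and the other R50 libraries was 15.04 and 18.03, while those 2 differed by 4.67. Changes of the members that involve R50, and counts that lead a paragraph, are therefore also given without it where a call or a count moves. Without it, 4816 genes were higher and 5323 lower in R50 than in parent, and 4940 were higher and 4273 lower in R50 OFF than in R50. Of 10 glioma markers, 8 averaged at least 10 in R50 OFF, 8 in R50 and 7 in parent. VIM, CD44, TNC and SPARC were the most abundant, but the astrocyte markers GFAP and S100B reached at most 8.18 and 1.78. Other glioma markers differed between the lines. CHI3L1 averaged 665.1 in R50 OFF, 14820 in R50 and 5060 in parent, and SOX2 averaged 24.7, 39.5 and 0 in the same order. OLIG2 averaged 75.4 in R50 OFF, 16.7 in R50 and 20.3 in parent, and NES averaged 20.7, 63.6 and 65.2. Leukocyte markers summed to 31.1 to 44.3 in R50 OFF, 28.7 to 46.3 in R50 and 40.5 to 50.3 in parent, and PTPRC reached at most 2.94. Epithelial markers summed to 24.5 to 40.8 in R50 OFF, 30.2 to 39.0 in R50 and 27.6 to 41.7 in parent, with EPCAM at means of 29.1 in R50 OFF, 10.2 in R50 and 33.4 in parent and KRT5 at 0.474 in R50 OFF, 17.0 in R50 and 0 in parent. Endothelial markers summed to 153 to 168 in R50 OFF, 251 to 301 in R50 and 352 to 386 in parent, most of it PECAM1. CDH5 averaged 0.179 in R50 OFF, 18.8 in R50 and 0.585 in parent, KDR averaged 13 in R50 OFF, 0.169 in R50 and 9.17 in parent, and VWF averaged 18.5 in R50 OFF, 22.9 in R50 and 9.56 in parent. Neuronal markers summed to 1430 to 1530 in R50 OFF, 1230 to 1440 in R50 and 1440 to 1580 in parent. MAP2 was the highest of them in each group, with means of 953.6 in R50 OFF, 1074 in R50 and 683.7 in parent. It made up most of the sum in R50 OFF and R50, but in parent SNAP25 and SYT1 together exceeded it. SNAP25 averaged 251.6 in R50 OFF, 41.8 in R50 and 400.7 in parent, and SYT1 averaged 269.1 in R50 OFF, 219.0 in R50 and 447.7 in parent. The part of these markers in the FGF results was not tested.

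Promoter sequences are shown of FGF5, the ligand that differed most between the lines, and of FGF1, a ligand not called in R50 OFF against parent. Among tested members with a promoter sequence, only the windows of FGF5 and FGF1 hold no annotated exon bases, and they were chosen for that. Each is the 250 bases before the RefSeq start on GRCh38.p14, 5′ to 3′ on the gene's strand, with capitals for motif matches.
FGF5: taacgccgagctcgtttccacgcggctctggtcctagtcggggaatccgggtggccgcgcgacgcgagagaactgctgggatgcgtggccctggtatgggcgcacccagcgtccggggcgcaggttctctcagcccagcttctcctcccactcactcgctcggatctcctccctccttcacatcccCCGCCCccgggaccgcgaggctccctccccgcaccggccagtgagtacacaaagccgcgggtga
FGF1: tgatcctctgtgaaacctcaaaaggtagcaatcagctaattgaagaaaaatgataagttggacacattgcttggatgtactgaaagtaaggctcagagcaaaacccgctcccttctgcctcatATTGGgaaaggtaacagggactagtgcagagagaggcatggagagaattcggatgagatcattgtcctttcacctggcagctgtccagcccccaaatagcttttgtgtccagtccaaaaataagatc
The FGF5 window lies at chr4:80266338-80266587 on the plus strand and the FGF1 window at chr5:142698071-142698320 on the minus strand. FGF5 holds 27 CG dinucleotides, more than in 82.3% of 35116 promoter windows, against 2 in FGF1 and a median of 11 in all windows. The capitals mark a GC box (GGGCGG on either strand) in FGF5, a match present in 42.6% of windows, and a CCAAT box (CCAAT on either strand) in FGF1, present in 32.0%. Neither window held the TATA box TATAAA (10.7% of windows), the AP-1 letters TGANTCA (6.6%), the cAMP response element TGACGTCA (1.6%), the ETS letters CCGGAAG (8.5%), the TEAD letters GGAATG (11.9%) or the hypoxia letters ACGTG (18.5%), each searched on both strands. The marked matches overlap no other motif searched.

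Among the ligands, FGF5, a secreted factor known for ending the growth phase of hair follicles, changed most. The gene (ENSG00000138675) spans bases 80266639 to 80336680 of chromosome 4, plus strand, in GENCODE on hg38. Its values were 115.2, 114.9 and 124.2 in R50 OFF, 32.3, 32.1 and 27.4 in R50, and 240.7, 271.4 and 262.1 in parent. No group overlapped another, with R50 lowest and R50 OFF between R50 and parent. Traced reads were 338 to 405 in R50 OFF, 85 to 106 in R50 and 682 to 879 in parent. FGF5 fell by 3.04 on the log2 scale in R50 against parent (SE 0.11, adjusted p = 2.48e-09). It fell by 1.12 in R50 OFF against parent (SE 0.11, adjusted p = 1.19e-05), and in R50 OFF against R50 it rose by 1.92 (SE 0.11, adjusted p = 1.59e-07). In bulk RNA, fewer cells that express a gene and less RNA per cell cannot be told apart.

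The tested genes around FGF5 had the same order of group means. Within 1 megabase of it, 3 other genes were tested, and they were singled out after their values were seen. PRDM8, a transcription factor gene of the PRDM family, averaged 1189 ± 71.7 in R50 OFF, 583.1 ± 41.1 in R50 and 1972 ± 58.2 in parent. ANTXR2, which encodes a receptor of anthrax toxin, averaged 3220 ± 49.4 in R50 OFF, 1617 ± 73.8 in R50 and 4880 ± 143 in parent. CFAP299 had 7.11, 28.4 and 25.3 in R50 OFF, 0, 0 and 1.34 in R50, and 23.6, 33.5 and 27.9 in parent, so that R50 OFF overlapped parent. PRDM8 changed by -1.76 and ANTXR2 by -1.59 in R50 against parent, by -0.73 and -0.60 in R50 OFF against parent, and by 1.03 and 0.99 in R50 OFF against R50, each past the threshold. CFAP299 changed by -4.45 in R50 against parent (adjusted p = 3.01e-05) and by 3.80 in R50 OFF against R50, but not past the threshold in R50 OFF against parent (-0.65, adjusted p = 0.338). CFAP299 shares 136 exon bases with FGF5 on the same strand, where reads cannot be told apart. Over the 600 tested genes of chromosome 4 the median change was -0.27 in R50 against parent, -0.01 in R50 OFF against parent and 0.31 in R50 OFF against R50.

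**Figure D2:**
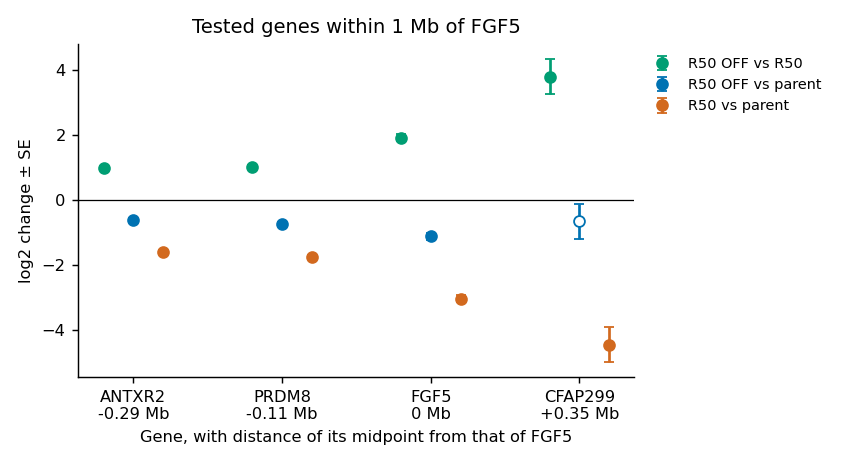
Change ± SE on the log2(value + 1) scale (vertical axis) of FGF5 and the 3 other tested genes within 1 megabase, ordered along chromosome 4 with the distance of their midpoints from that of FGF5, in 3 comparisons, filled where the adjusted p is under 0.05. In R50 against parent every gene lies below 0, from -1.59 for ANTXR2 to -4.45 for CFAP299, and in R50 OFF against R50 every gene lies above 0.

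FGF2, or basic FGF, a mitogen that needs heparan sulfate to bind its receptors, was the most abundant of the 5 member ligands per kilobase in every library. Its gene (ENSG00000138685) spans bases 122826682 to 122898236 of chromosome 4, plus strand. FGF2 had 168.5, 207.7 and 209.1 in R50 OFF, 205.0, 317.7 and 210.3 in R50, and 451.2, 399.3 and 399.5 in parent. The resistant lines overlapped each other and both lay below every parent library, with R50 replicate 2 the highest of the resistant libraries. FGF2 fell by 0.80 in R50 against parent (SE 0.16, adjusted p = 0.00115) and by 1.10 in R50 OFF against parent (SE 0.16, adjusted p = 0.000181). Without R50 replicate 2 the first of these was -1.0 (adjusted p = 1.5e-05). Between R50 OFF and R50 the change was -0.30, with a 95% interval of -0.65 to 0.05 (adjusted p = 0.126), and -0.10 without R50 replicate 2 (adjusted p = 0.466).

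FGF2 shares 804 exon bases with NUDT6, a gene on the opposite strand, and the strand setting of the authors' counting is not given in the sources used here. Reads in that overlap therefore cannot be assigned with certainty. NUDT6 averaged 263.8 ± 33.8 in R50 OFF, 229.9 ± 15.7 in R50 and 240.1 ± 13.4 in parent. It passed the test in none of the 3 comparisons, with adjusted p = 0.137 between the resistant lines, 0.33 in R50 OFF and 0.619 in R50 against parent. Of the 7 other tested genes within 1 megabase of FGF2, 5 were lower in R50 than in parent and 4 in R50 OFF, with median changes of -0.58 and -0.60. Of all tested genes, 31.7% and 25.7% were lower in these comparisons.

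FGF1, or acidic FGF, a ligand of all FGF receptor kinases, was the tested member with the fewest traced reads, 50 to 141 per library. The gene (ENSG00000113578) spans bases 142592178 to 142698070 of chromosome 5, minus strand. FGF1 had 92.5, 98.3 and 94.7 in R50 OFF, 67.5, 102.1 and 50.2 in R50, and 114.5, 135.8 and 127.4 in parent. All resistant libraries lay below all parent libraries, and R50 spanned a wider range than R50 OFF. FGF1 fell by 0.83 in R50 against parent (SE 0.21, adjusted p = 0.00506), and by 1.10 without R50 replicate 2 (adjusted p = 7.7e-05). Its change of -0.40 in R50 OFF against parent did not pass (interval -0.86 to 0.06, adjusted p = 0.137), although it did in a fit of those 2 groups alone (adjusted p = 0.00904). The change of 0.43 in R50 OFF against R50 did not pass (adjusted p = 0.0983), and without R50 replicate 2 it was 0.70 (adjusted p = 0.00207). Of the 13 other tested genes within 1 megabase of FGF1, 4 were lower and 2 higher in R50 than in parent (median change 0.07). In R50 OFF against parent 6 were lower and 1 higher (median -0.32). In R50 OFF against R50 4 were lower and 3 higher (median -0.12). Of all tested genes, 31.7%, 25.7% and 29.3% were lower and 31.6%, 26.3% and 30.2% higher in these comparisons. Chromosome 5 as a whole had median changes of 0.02, 0.01 and -0.01 in the same order.

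FGF7, or keratinocyte growth factor, a ligand made by mesenchymal cells, lay too low to be tested. Its values were 0, 3.11 and 1.56 in R50 OFF, 12.0, 12.2 and 4.94 in R50, and 3.87, 2.03 and 4.88 in parent. These stand for 0 to 5 traced reads in R50 OFF, 7 to 18 in R50 and 3 to 6 in parent. With no minimum value, its change was -2.20 in R50 OFF against R50 (adjusted p = 0.0194) and 1.19 in R50 against parent (adjusted p = 0.181). FGF7 has near-identical partial copies in the genome, so its few reads are uncertain. FGF11 held at most 3 reads in any library and at most 1.71, so no difference was detectable at this depth.

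The summed signal of FGF1, FGF2 and FGF5 was 376.1, 420.9 and 428.0 in R50 OFF, 304.9, 452.0 and 287.9 in R50, and 806.5, 806.5 and 789.0 in parent. Both resistant lines lay below parent and overlapped each other. FGF5 supplied 27.3% to 30.6% of that sum in R50 OFF, 7.11% to 10.6% in R50 and 29.8% to 33.6% in parent. In each group the order per kilobase was FGF2, then FGF5 and FGF1, except that FGF1 stood above FGF5 in R50, with no overlap between these neighbours in any group. FGF7 and FGF11 came after them and overlapped with each other in R50 OFF.

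Of the 3 kinase receptors with a row, FGFR1 alone had more than 2 reads in a library. Its gene (ENSG00000077782) spans bases 38400215 to 38468834 of chromosome 8, minus strand. FGFR1 had 7147, 6345 and 6871 in R50 OFF, 5117, 4899 and 5276 in R50, and 6844, 6369 and 6600 in parent. R50 lay below both other groups, which overlapped each other. FGFR1 fell by 0.37 in R50 against parent (SE 0.05, adjusted p = 0.00011) and rose by 0.41 in R50 OFF against R50 (SE 0.05, adjusted p = 6.79e-05). For R50 OFF against parent the change was 0.04, with a 95% interval of -0.08 to 0.16 (adjusted p = 0.579). Without R50 replicate 2 the changes were -0.35 in R50 against parent and 0.38 in R50 OFF against R50, both past the threshold. LETM2, on the opposite strand with 138 shared exon bases, averaged 476.8 ± 25.4 in R50 OFF, 527.4 ± 20 in R50 and 285.1 ± 17.5 in parent. The IIIb and IIIc splice forms of the receptors, which differ in the ligands they bind, cannot be told apart in values per gene.

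The other kinase receptors with a row were near 0. FGFR2 had 1 read in 1 R50 OFF library and 0 in the 8 other libraries. FGFR4 had 0, 0 and 2 reads in R50 OFF, 1, 0 and 0 in R50, and 0, 0 and 2 in parent. At these counts no difference between the lines was detectable.

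FGFRL1, the receptor without a kinase domain, rose in both resistant lines. The gene (ENSG00000127418) spans bases 1009936 to 1026898 of chromosome 4, plus strand. FGFRL1 had 2717, 2546 and 2679 in R50 OFF, 1343, 1203 and 1612 in R50, and 858.1, 883.8 and 886.9 in parent. The groups did not overlap, with R50 OFF highest and parent lowest. FGFRL1 rose by 1.59 in R50 OFF against parent (SE 0.09, adjusted p = 1.71e-07), by 0.65 in R50 against parent (SE 0.09, adjusted p = 7.23e-05) and by 0.94 in R50 OFF against R50 (SE 0.09, adjusted p = 5.69e-06). The last 2 changes were 0.75 and 0.85 without R50 replicate 2. Of the 25 other tested genes within 1 megabase, 18 were higher in R50 OFF than in R50, with a median change of 0.64, and 14 were lower in R50 than in parent, with a median of -0.35. On chromosome 4 as a whole, 307 of 600 genes were higher and 74 lower in R50 OFF than in R50, and 302 were lower and 104 higher in R50 than in parent. Of all tested genes, 30.2% were higher and 29.3% lower in the first comparison, and 31.7% lower and 31.6% higher in the second. Of the 25 genes within 1 megabase, 10 were higher and 4 lower in R50 OFF than in parent, with a median of 0.17. On the whole chromosome that comparison had 146 higher and 134 lower, with a median of -0.01, beside 26.3% and 25.7% of all tested genes.

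**Figure D3:**
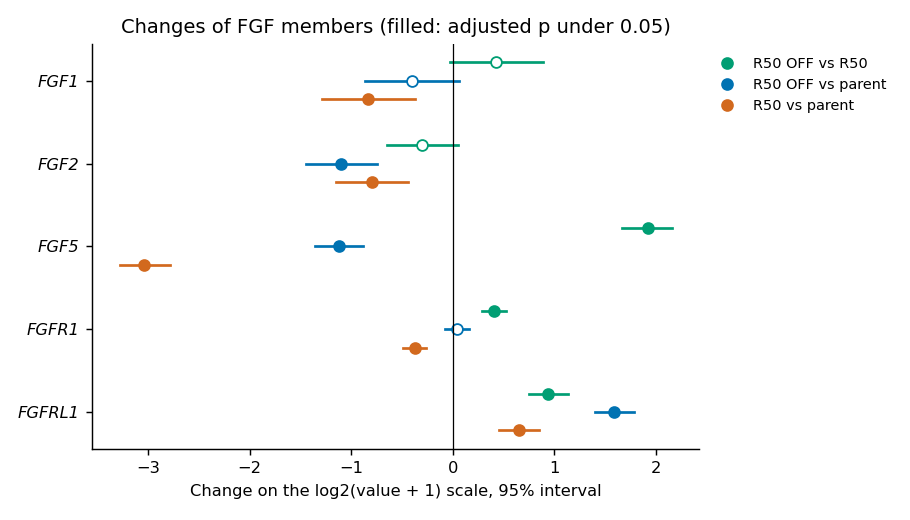
Change with its 95% interval on the log2(value + 1) scale (horizontal axis) of the 5 tested FGF members in 3 comparisons, filled where the adjusted p is under 0.05. FGF5 lies farthest from 0 on either side, at -3.04 in R50 against parent and at 1.92 in R50 OFF against R50.

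FGFRL1 made up 27.5%, 28.6% and 28.1% of the summed FGFR1 and FGFRL1 signal in R50 OFF, 20.8%, 19.7% and 23.4% in R50, and 11.1%, 12.2% and 11.8% in parent. The groups did not overlap. The means were 28.1% ± 0.546 in R50 OFF, 21.3% ± 1.9 in R50 and 11.7% ± 0.533 in parent (SD, n = 3 each). On the log2 scale the FGFRL1 to FGFR1 ratio was higher by 1.56 in R50 OFF and by 1.02 in R50 than in parent, and by 0.53 in R50 OFF than in R50. A two-sided exact permutation test gave p = 0.1 for each of these 3 differences, the smallest value that 3 against 3 libraries allow. The share depends on the transcript lengths by which the authors divided, but its order across libraries does not.

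**Figure D4:**
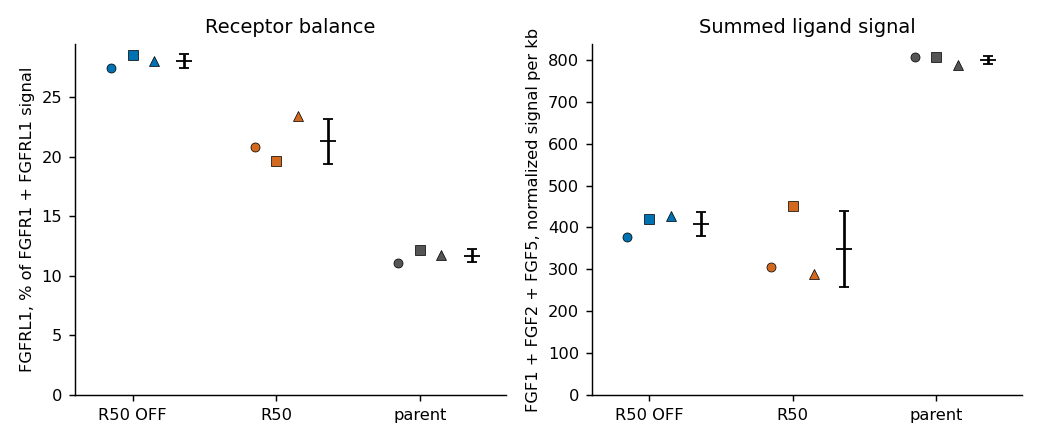
Share of FGFRL1 in the summed FGFR1 and FGFRL1 signal in percent (left) and summed signal of FGF1, FGF2 and FGF5 per kilobase (right) in each library, both axes from 0, with the mean ± SD at the right of each group. The share runs from 27.5% to 28.6% in R50 OFF, from 19.7% to 23.4% in R50 and from 11.1% to 12.2% in parent, and the ligand sum is lower in every resistant library than in every parent library.

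Profiles nearest to the 3 most abundant members were taken as the smallest Euclidean distance between centred log2 values over the 9 libraries. SRPRA and ELAC2 lay nearest to FGFR1, at distances of 0.047 and 0.066, beside a median of 1.114 for all tested genes with a symbol. LINC00944 and GRK5 lay nearest to FGFRL1, at 0.363 and 0.437, beside a median of 2.269. NEK7 and BIRC2 lay nearest to FGF2, at 0.236 and 0.363, beside a median of 1.804. NEK7 averaged 1320 ± 152 in R50 OFF, 1796 ± 377 in R50 and 2926 ± 37.1 in parent.

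Transcripts of the remaining FGF genes that encode secreted ligands were low. Of 14 other FGF genes with a row, 3 were tested, all of them intracellular homologous factors. The 11 that were not tested, among them FGF8, FGF9 and FGF18, averaged at most 4.87 in any group. FGF14, a partner of voltage-gated sodium channels, had 207.3, 210.9 and 207.3 in R50 OFF, 69.4, 81.8 and 71.8 in R50, and 32.8, 37.3 and 43.1 in parent. It rose by 2.44 in R50 OFF against parent (adjusted p = 1.15e-07), by 0.96 in R50 against parent (adjusted p = 6.16e-05) and by 1.48 in R50 OFF against R50 (adjusted p = 3.16e-06). FGF12, of the same group, had 27.0, 55.5 and 46.6 in R50 OFF, 12.8, 10.1 and 9.0 in R50, and 28.0, 57.5 and 81.3 in parent. It fell to 0.222 times parent in R50 on the log2(value + 1) scale (adjusted p = 0.000461) and rose by 1.87 in R50 OFF against R50 (adjusted p = 0.00146), while R50 OFF and parent overlapped. FGF13 passed the test in no comparison, with adjusted p of 0.279 to 0.971.

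Feedback inhibitors of the pathway were mostly lower in R50. Of 12 tested, 10 were lower and 1 higher in R50 than in parent, beside 31.7% and 31.6% of all genes, with a median change of -0.98 beside 0.02 for all genes. In R50 OFF against parent 8 were lower and 1 higher, beside 25.7% and 26.3% of all genes, with a median of -0.56. In R50 OFF against R50 7 were higher and 1 lower, beside 30.2% and 29.3%, with a median of 0.44. Without R50 replicate 2 the counts were 11 lower and 1 higher in R50 against parent, and 8 higher and 1 lower in R50 OFF against R50. SPRY4, a Sprouty inhibitor of receptor tyrosine kinase signalling, had 793.6, 732.3 and 740.4 in R50 OFF, 128.7, 138.7 and 166.4 in R50, and 1435, 1497 and 1499 in parent. DUSP6, a phosphatase that inactivates ERK, had 2162, 2334 and 2237 in R50 OFF, 570.0, 605.3 and 705.8 in R50, and 3901, 4291 and 4580 in parent. Neither gene's groups overlapped, and R50 OFF lay between the others. SPRY4 changed by -3.35 and DUSP6 by -2.76 in R50 against parent (adjusted p = 2.43e-10 and 6.04e-10), and they rose by 2.38 and 1.84 in R50 OFF against R50 (adjusted p = 6.81e-09 and 2.58e-08).

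Other inhibitors moved less evenly. SPRY4 lies within 1 megabase of FGF1. SPRY1, which lies within 1 megabase of FGF2, averaged 14.7 ± 3.74 in R50 OFF, 6.47 ± 3.03 in R50 and 31.1 ± 5.08 in parent. DUSP5, another ERK phosphatase, averaged 587.8 ± 80.1 in R50 OFF, 581.4 ± 63.1 in R50 and 1181 ± 32.1 in parent, and changed by -1.01 in R50 OFF and -1.03 in R50 against parent (adjusted p = 1.28e-05 and 5.95e-06). CBLB, a ubiquitin ligase of receptor kinases, averaged 119.9 ± 2.97 in R50 OFF, 311.7 ± 16.7 in R50 and 187.5 ± 9.03 in parent. Of the 12 genes in this list it was the one that rose in R50 against parent, by 0.73 (adjusted p = 1.47e-05), and it fell by 1.37 in R50 OFF against R50 (adjusted p = 1.84e-07). IL17RD, an inhibitor of FGF signalling counted below with the co-receptors, rose in both resistant lines against parent. Its changes were 0.66 in R50 (adjusted p = 0.0287), where the groups overlapped, and 1.72 in R50 OFF (adjusted p = 0.000107).

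Transcriptional targets of FGF-MAPK signalling, which other receptors of the same cascade also drive, were lower in R50 as well. Of 10 tested, 9 were lower and 0 higher in R50 than in parent, beside 31.7% and 31.6% of all genes, with a median of -0.89. The remaining gene, EGR1, named after its value was seen, had a change of -0.17 (adjusted p = 0.355). Against parent, R50 OFF had 6 lower and 1 higher, beside 25.7% and 26.3% of all genes, with a median of -0.22. In R50 OFF against R50 7 were higher and 1 lower, beside 30.2% and 29.3%, with a median of 0.95. Without R50 replicate 2 the counts involving R50 were the same. CCND1, which encodes cyclin D1, averaged 26740 ± 1780 in R50 OFF, 11350 ± 691 in R50 and 30350 ± 657 in parent. FOSL1, an AP-1 subunit gene, averaged 7023 ± 204 in R50 OFF, 3250 ± 22 in R50 and 9191 ± 128 in parent. SPHK1, which encodes sphingosine kinase, averaged 1824 ± 8.29 in R50 OFF, 556.8 ± 20.1 in R50 and 1874 ± 50.5 in parent. In R50 against parent CCND1 changed by -1.42, FOSL1 by -1.50 and SPHK1 by -1.75, and in R50 OFF against R50 they rose by 1.24, 1.11 and 1.71, all past the threshold. ETV4, an ETS factor gene, rose by 0.45 in R50 OFF against parent (adjusted p = 0.00012), whereas IER3 and MYC changed by -0.72 and -0.55 there (adjusted p = 1.47e-05 and 1.43e-05).

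**Figure D5:**
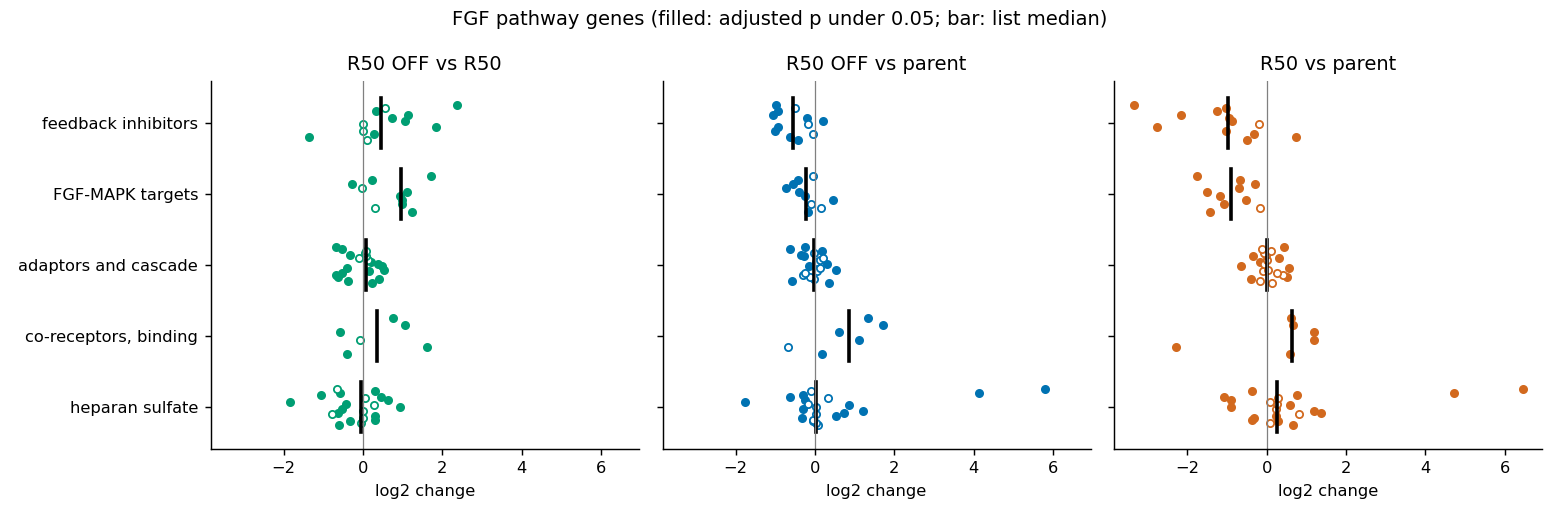
Change on the log2(value + 1) scale (horizontal axis) of each tested gene of 5 FGF pathway lists in R50 OFF against R50, R50 OFF against parent and R50 against parent, filled where the adjusted p is under 0.05, with a bar at the list median. Feedback inhibitors have medians of 0.44, -0.56 and -0.98 in these comparisons, while adaptors and the cascade stay close to 0 at 0.06, -0.03 and 0.00.

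The cascade between receptor and nucleus had no common direction. Of 20 adaptors and cascade genes, 4 were higher and 4 lower in R50 than in parent, beside 31.6% and 31.7% of all genes. In R50 OFF against parent 4 were higher and 6 lower, beside 26.3% and 25.7%. Between R50 OFF and R50, 7 were higher and 8 lower, beside 30.2% and 29.3%. Without R50 replicate 2, 6 were higher and 6 lower in R50 against parent. MAP2K1, the gene of the kinase MEK1, averaged 3626 ± 75.1 in R50 OFF, 2579 ± 29.7 in R50 and 4036 ± 76.1 in parent, and fell by 0.65 in R50 against parent (adjusted p = 1.25e-07). FRS2, the docking protein of the FGF receptors, averaged 1250 ± 17.1 in R50 OFF, 1963 ± 317 in R50 and 1367 ± 58.3 in parent. It rose by 0.51 in R50 against parent (adjusted p = 0.000587) and fell by 0.64 in R50 OFF against R50 (adjusted p = 0.000145). SOS1, an activator of RAS, changed by -0.64 in R50 OFF against parent (adjusted p = 1.57e-05), BRAF by -0.58 (adjusted p = 0.000156), and HRAS rose by 0.54 (adjusted p = 0.000158). FRS3 and SOS2 changed by -0.69 and -0.68 in R50 OFF against R50 (adjusted p = 0.00695 and 2.03e-05).

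Of 6 tested FGF co-receptors and binding proteins, 5 were higher and 1 lower in R50 than in parent, with a median of 0.63. The shares of all genes were 31.6% and 31.7%. In R50 OFF against parent 5 were higher and 0 lower, beside 26.3% and 25.7%, with a median of 0.85. Between R50 OFF and R50, 3 were higher and 2 lower, beside 30.2% and 29.3%, with a median of 0.34. Leaving out R50 replicate 2 gave 4 higher and 1 lower in R50 than in parent, and 2 higher and 2 lower in R50 OFF than in R50. FLRT2, a membrane protein of a family that binds FGF receptors, averaged 3083 ± 147 in R50 OFF, 4589 ± 128 in R50 and 2031 ± 72.6 in parent. It rose by 1.18 in R50 against parent (adjusted p = 7.39e-09). NCAM1, a neural adhesion molecule that can bind FGFR1, had 704.6, 669.2 and 667.9 in R50 OFF, 450.8, 375.3 and 392.8 in R50, and 270.5, 257.6 and 272.8 in parent. It rose by 1.35 in R50 OFF against parent (adjusted p = 2.01e-07) and by 0.75 in R50 OFF against R50 (adjusted p = 1.11e-05). IL17RD, also called Sef, an inhibitor of FGF signalling, averaged 74.6 ± 9.08 in R50 OFF, 35.1 ± 4.43 in R50 and 22.6 ± 7.69 in parent, and rose by 1.72 in R50 OFF against parent (adjusted p = 0.000107). FGFBP3, a secreted FGF carrier, averaged 55.0 ± 0.8 in R50 OFF, 58.5 ± 9.54 in R50 and 25.1 ± 1.08 in parent. FGFBP1, of the same family, averaged 9.57 ± 4.01 in R50 OFF, 3.22 ± 3.76 in R50 and 15.8 ± 6.96 in parent. Its change of -2.28 in R50 against parent (adjusted p = 0.00745) lost its call in a fit of those 2 groups alone.

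Heparan sulfate genes included the largest rises among the pathway genes. Of 21 tested, 9 were higher and 6 lower in R50 than in parent, beside 31.6% and 31.7% of all genes, with a median of 0.27. In R50 OFF against parent 6 were higher and 6 lower, beside 26.3% and 25.7%, with a median of 0.03. In R50 OFF against R50 6 were higher and 8 lower, beside 30.2% and 29.3%, with a median of -0.06. With R50 replicate 2 left out, 10 were higher and 6 lower in R50 than in parent, and the counts of R50 OFF against R50 were the same. SULF2, a sulfatase that removes sulfate groups from heparan sulfate outside the cell, had 135.1, 118.2 and 150.7 in R50 OFF, 213.1, 192.9 and 226.8 in R50, and 4.03, 1.76 and 0 in parent. SDC3, a syndecan that carries heparan sulfate, had 148.5, 142.6 and 150.8 in R50 OFF, 216.8, 207.0 and 237.3 in R50, and 6.26, 8.37 and 7.74 in parent. For both genes every resistant library lay above every parent library. SULF2 rose by 5.81 in R50 OFF and by 6.46 in R50 against parent (adjusted p = 2e-06 and 3.72e-07), and SDC3 rose by 4.14 and 4.72 (adjusted p = 4.82e-09 and 4.62e-10). GPC6, a glypican gene, rose by 1.37 in R50 against parent (adjusted p = 1.36e-07). HSPG2, which encodes perlecan, averaged 213.4 ± 17.8 in R50 OFF, 772.8 ± 91.3 in R50 and 726.8 ± 39.9 in parent, and fell by 1.77 in R50 OFF against parent (adjusted p = 1.56e-07). In R50 OFF against R50 HSPG2 and SDC2 changed by -1.85 and -1.06, and the sulfotransferase gene HS3ST3A1 rose by 0.93, each past the threshold.

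Of 13 tested genes that overlap or neighbour a member, 3 were higher and 3 lower in R50 than in parent. The shares of all genes were 31.6% and 31.7%. In R50 OFF against parent 4 were higher and 2 lower, beside 26.3% and 25.7%. In R50 OFF against R50 4 were higher and 5 lower, beside 30.2% and 29.3%. Without R50 replicate 2, 2 were higher and 4 lower in R50 than in parent, and 3 higher and 3 lower in R50 OFF than in R50. With quantile normalization 3 were lower in R50 OFF than in R50, and 3 were without R50 OFF replicate 1, while without parent replicate 2 the lower count in R50 OFF against parent was 1. LETM2 rose by 0.89 in R50 and by 0.74 in R50 OFF against parent (adjusted p = 1.22e-06 and 9.99e-06). CHRNB1, near FGF11, rose by 1.33 in R50 against parent (adjusted p = 1.29e-06), and IDUA, next to FGFRL1, fell by 1.04 there (adjusted p = 0.000316).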

How the data were processed

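The deposited table holds 9 columns of linear signal. Per the file headers, the authors scaled libraries to each other and then divided each gene by its median transcript length. Per the labels' protocols, the libraries are stranded poly-A libraries read as single ends of 50 bases, while hg38 and bcl2fastq version 2.17.1.14 appear in the submitters' processing notes. Aligner, counter, strand setting and annotation: not given in the sources used here. For every gene the values could be divided into whole reads (tolerance 0.0001 reads), which gave traced reads and showed that the library factors equal median-of-ratios factors.

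Groups and replicate numbers came from the sample titles. limma 3.58.1 in R 4.3.3, with an empirical Bayes trend and 6 residual degrees of freedom, was fitted to log2(value + 1) of 16456 genes, those where 3 or more libraries held 10 or higher. The fit was tested on simulated data. Gene symbols matched 33137 IDs (99.62%), coordinates came from GENCODE version 44 on hg38, and promoter sequences came from RefSeq, which held 8 of the 9 members with a row. The members and lists were chosen with earlier results of these data known. All members are named, and of each pathway list up to 3 genes per comparison with the largest change past the threshold, plus genes overlapping or next to a member. A gene that this rule selects is not reported here. Alternatives were other pseudocounts and minimum values, quantile normalization, a replicate block, other fits and each replicate left out. FGFR3 was not analysed here.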

Additional observations from a re-analysis of the deposited data

Results flagged for a closer look

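The change against parent differed between the resistant lines for 3 of the 5 tested members, a share close to that of all genes. Of all 16456 genes tested, 59.5% were called in R50 OFF against R50. Parent cancels in that difference, so its test is the R50 OFF against R50 contrast of the same limma fit. The values below therefore repeat results given above. For FGF5 the difference was 1.92 on the log2 scale (R50 OFF -1.12, R50 -3.04, adjusted p = 1.59e-07). For FGFRL1 it was 0.94 (R50 OFF 1.59, R50 0.65, adjusted p = 5.69e-06). For FGFR1 it was 0.41 (R50 OFF 0.04, R50 -0.37, adjusted p = 6.79e-05). No explanation was tested.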

How the results depend on the processing

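Under the alternatives, 223 recomputed changes of the 5 tested members kept their direction and their side of the threshold. The 2 that did not were FGF1 in R50 OFF against parent in a fit of those 2 groups alone (-0.40, adjusted p = 0.00904, range 0.00904 to 0.281 over its alternatives) and FGF1 in R50 OFF against R50, which ran from 0.19 to 0.70 with each replicate left out and passed only without R50 replicate 2. All 180 counts over all genes and over the joined pathway lists stayed within 1.5 times. Of the counts for single lists, 9 moved further. With quantile normalization 8 adaptors and cascade genes were higher in R50 against parent, instead of 4, and 4 were higher in R50 OFF against R50, instead of 7. Deviations of same-numbered replicates had correlations of -0.021 to 0.1, beside -0.082 to 0.044 for replicates with different numbers. The largest was between replicates 2 of R50 OFF and R50. Low correlations over all genes cannot exclude a pairing by replicate number, and the labels state none. With a replicate block 5335 genes were higher and 5318 lower in R50 against parent, instead of 5206 and 5216, and no member changed its call. The 2 planned count tests were not run, since the values keep a step per gene, and limma-voom on traced reads, added after seeing the data, took their place. Depth limits FGF7, FGF11, FGFR2 and FGFR4, which hold few reads.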
